A study of Xenopus laevis with 10 samples.

Results

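The AP-1 transcription factor genes of the Fos and Jun families and the cytokine signalling inhibitor genes socs1 and socs3 were followed in the intestinal tubes of fed and unfed Xenopus laevis tadpoles. Genes were taken by their deposited descriptions (c-Fos, FosB, Fos-related antigens 1 and 2, AP-1 or Jun, JunB and JunD, and suppressor of cytokine signaling 1 or 3), and of the transcript variants of a gene the one with the highest total count was kept. This gave 23 genes of 35664, of which 8 belong to the Fos family, 9 to the Jun family and 6 to the Socs genes. Xenopus laevis carries a pair of subgenomes from an old hybridization, and the endings .L and .S tell their copies of a gene apart.

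AP-1 is a dimer of leucine zipper proteins, either a Jun protein with a Fos protein or a pair of Jun proteins, that binds promoters and enhancers of genes for growth, matrix turnover and inflammation. Many fos and jun genes are immediate early genes in mammalian cells: growth factors, stress and cytokines raise their mRNA within minutes, through MAP kinases and without new protein synthesis, and the mRNA is short-lived. SOCS proteins close a feedback loop, since cytokine receptors activate JAK kinases and STAT factors, STAT factors transcribe the socs1 and socs3 genes, and their products bind the kinases or receptors and stop the signal; in mice Socs3 limits STAT3 activity in the gut epithelium.

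The 10 RNA sequencing libraries were 5 of fed and 5 of unfed tadpoles of otherwise unstated strain, all raised at 19 °C, with 20 to 26 intestinal tubes pooled per stage. Experiment 1 gave a fed and an unfed library at 10 and at 13 days post fertilization (dpf), and experiment 2 gave them at 10, 13 and 16 dpf. The labels name neither the food nor separate clutches or tanks, so p-values measure the spread between these libraries, which may be technical. Titles and stage fields give different ages for 2 libraries of experiment 1. One is fed, with 13 dpf in the title and 10 dpf in the stage field; the other is unfed, with 10 dpf in the title and 13 dpf in the stage field. The titles were followed. By the stage fields both fed libraries of experiment 1 would be 10 dpf and both unfed ones 13 dpf. Feeding and age could then not be told apart in that experiment. Gene totals ran from 7462341 to 10583205 counts. Levels are CPM, counts scaled to a common library size, and the values of 5 libraries are listed in the order 10 and 13 dpf of experiment 1, then 10, 13 and 16 dpf of experiment 2.

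Of the 23 genes, 17 had enough counts to be tested over all ages, and 12 of them were lower in fed than in unfed tadpoles while 0 were higher (edgeR quasi-likelihood test, adjusted p at most 0.05 over 22883 genes). Much of the transcriptome differed between the feeding states: 26% of all tested genes were lower in fed tadpoles and 25.4% were higher by the same test. By family, 4 of 5 tested Fos genes, 4 of 8 Jun genes and all 4 tested Socs genes were lower. The median log2 fold change, fed minus unfed, was -1.34 over the 17 genes and -2.89 over the 4 Socs genes, beside -0.02 over all genes. In 5 of the 17 (fos.S, fosl1.S, socs1.S, socs3.S and socs3l.L) some fed libraries lay below the low-count filter of 1.1 CPM while all unfed libraries passed it. The filter was applied before the TMM factors, so the scaled CPM given below can lie slightly under it. It asked for 5 libraries, so these genes could enter the test on their unfed libraries alone. The counts and medians above, and the counts set beside a background below, thus describe the tested genes only. In 7 of the 17 every fed library lay below every unfed library, which held for 14.8% of all tested genes, and 11 of the 17 were lower in the fed library of all 5 pairs of the same age and experiment, which held for 26.2% of all tested genes. In whole intestinal tubes, fewer cells of a type and less RNA per cell cannot be told apart.

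**Figure D1:**
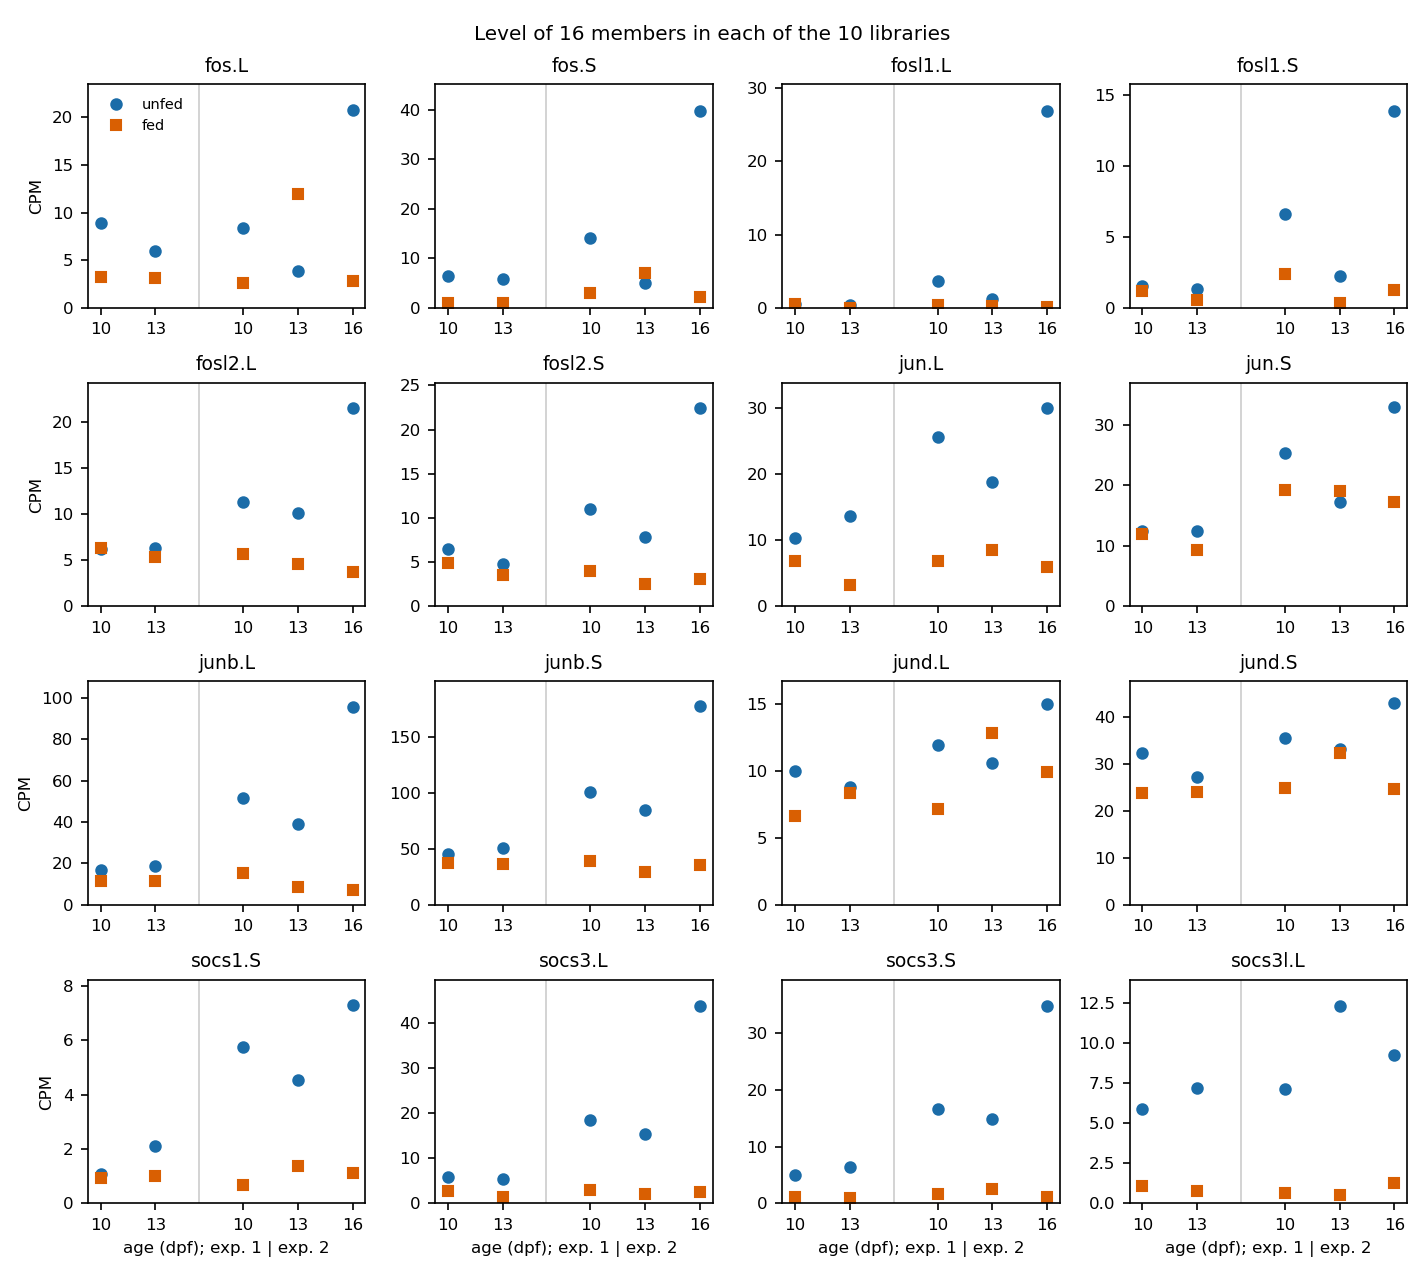
Level in CPM (linear axis from 0) of 16 of the 23 genes against age in dpf, experiment 1 left and experiment 2 right of the grey line in each panel, 1 point per library (circles unfed, squares fed). The unfed 16 dpf library holds the highest point for most genes (for fosl1.L 26.9 CPM beside 3.7 in the next). For jun.L, junb.L, junb.S, socs3.L, socs3.S and socs3l.L every fed point lies below every unfed point.

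The socs3 genes had the largest log2 fold changes of the 17 tested genes. For socs3.L the fed libraries held 2.79, 1.46, 3.03, 2.01 and 2.55 CPM and the unfed libraries 5.9, 5.34, 18.4, 15.3 and 43.7 CPM. For socs3.S they held 1.05, 0.901, 1.68, 2.52 and 1.13 CPM when fed and 4.99, 6.35, 16.6, 14.8 and 34.8 CPM when unfed. In both copies all fed libraries were low, the groups did not overlap, and the unfed libraries of experiment 2 were all above those of experiment 1. SOCS3 binds JAK kinases and the shared receptor chain of the interleukin 6 family. The log2 fold change was -2.57 ± 0.36 (SE; adjusted p 0.000399) for socs3.L and -3.20 ± 0.31 (adjusted p 3.79e-05) for socs3.S.

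A gene described as suppressor of cytokine signaling 3-like, socs3l.L, had 1.05, 0.788, 0.673, 0.503 and 1.28 CPM in fed and 5.9, 7.16, 7.15, 12.3 and 9.24 CPM in unfed tadpoles. It was low in every fed library, the groups did not overlap, and the unfed libraries of the experiments overlapped each other. Its log2 fold change of -3.24 ± 0.27 had the smallest adjusted p of the tested set (1.24e-05). Between the experiments, unfed socs3l.L differed by a log2 of 0.47 ± 0.30 (adjusted p 0.489).

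socs1 encodes the inhibitor that binds JAK kinases after interferon stimulation. For socs1.S the fed libraries held 0.93, 1.01, 0.673, 1.38 and 1.13 CPM and the unfed libraries 1.09, 2.12, 5.75, 4.52 and 7.28 CPM. The unfed 10 dpf library of experiment 1 lay within the range of the fed libraries, and the 3 unfed libraries of experiment 2 stood clear of it. The log2 fold change over all ages was -1.85 ± 0.36 (adjusted p 0.00155). The remaining Socs genes had counts too low for the filter: socs1.L had 0.112 to 1.01 CPM in fed and 0.726 to 3.33 CPM in unfed tadpoles, lower in the fed library of all 5 pairs, and the socs1-like gene LOC108715012 had 1 to 6 counts in any library. Without the filter socs1.L had a log2 fold change of -1.69 ± 0.44 (adjusted p 0.00742) and LOC108715012 had 0.98 ± 0.60 (adjusted p 0.232); the latter overlaps another protein-coding gene, so its reads are uncertain.

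junb, whose product is a weaker activator than c-Jun in mammalian cells, was the most abundant gene of the set. In fed tadpoles junb.S was at 37.4, 36.7, 39, 29.6 and 35.2 CPM. In unfed tadpoles it was at 45.3, 50.3, 101, 84.4 and 177 CPM, so that the groups did not overlap and experiment 2 was higher. junb.L also had no overlap and the same order of its unfed libraries, with 11.3, 11.6, 15.3, 8.68 and 7.37 CPM in fed and 16.9, 18.8, 51.9, 38.9 and 95.6 CPM in unfed tadpoles. The log2 fold changes were -1.19 ± 0.28 (adjusted p 0.00567) for junb.S and -1.74 ± 0.45 (adjusted p 0.0139) for junb.L.

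The copies of jun, which encodes c-Jun, differed in how far the groups parted. jun.L had 6.86, 3.26, 6.84, 8.55 and 5.95 CPM in fed and 10.3, 13.7, 25.5, 18.8 and 29.9 CPM in unfed tadpoles, with no overlap. jun.S had 11.9, 9.34, 19.3, 19 and 17.3 CPM in fed and 12.4, 12.5, 25.4, 17.2 and 33 CPM in unfed tadpoles, and the ranges overlapped widely. jun.L fell by 1.58 ± 0.23 on the log2 scale (adjusted p 0.000307), while jun.S had -0.34 ± 0.16 (adjusted p 0.0904). The difference between the copies was not tested. With a transcript length trend removed jun.S passed the threshold (-0.43, adjusted p 0.0386).

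jund, which many mammalian cells express without a stimulus, had smaller fold changes. jund.S had 23.8, 24.1, 25, 32.3 and 24.7 CPM in fed and 32.3, 27.3, 35.5, 33.1 and 43.1 CPM in unfed tadpoles; the fed 13 dpf library of experiment 2 reached into the unfed range. Its log2 fold change was -0.39 ± 0.14 (adjusted p 0.0331), and its reads are uncertain because another protein-coding gene overlaps it in the annotation. That call was lost without any 1 of 7 libraries: without a 10 dpf library the adjusted p was 0.053 (fed, experiment 1), 0.0821 (unfed, experiment 1), 0.0987 (fed, experiment 2) and 0.0691 (unfed, experiment 2), and it was 0.0553 without the fed 13 dpf library of experiment 1, 0.103 without the fed and 0.118 without the unfed 16 dpf library. It was also lost without the experiment block (0.064) and without both 16 dpf libraries (0.115).

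jund.L, LOC108713478 and jund.2.S did not pass. jund.L had a log2 fold change of -0.34 ± 0.17 (adjusted p 0.124; 0.0279 without the fed 13 dpf library of experiment 2), and the jun-D-like gene LOC108713478 had -0.36 ± 0.15 (adjusted p 0.0574; 0.0435 without the fed 16 dpf library). The LOC108713478 levels of 6.04 to 8.83 CPM in fed libraries ended just below those of 8.96 to 11.2 CPM in unfed libraries. With a transcript length trend removed the log2 fold change of LOC108713478 was 0.04 (adjusted p 0.818). Another jun-D-like gene, jund.2.S, had 4.54 ± 1.37 CPM in fed and 4.47 ± 1.07 CPM in unfed tadpoles (SD, n = 5 each) and a log2 fold change of 0.01 ± 0.17 (adjusted p 0.982), whose sign differed between settings. The AP-1-like gene LOC108700666 had 0 counts in each of the 10 libraries.

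Among the Fos genes, fos itself is the best known immediate early gene. fos.S had 0.93, 0.901, 2.92, 7.04 and 2.13 CPM in fed and 6.44, 5.75, 14.1, 4.95 and 39.8 CPM in unfed tadpoles. fos.L had 3.25, 3.15, 2.58, 12 and 2.83 CPM in fed and 8.89, 5.95, 8.43, 3.87 and 20.8 CPM in unfed tadpoles. In both copies the fed 13 dpf library of experiment 2 was the highest fed library and lay above its unfed partner, in 1 of the 5 pairs, and the other 4 pairs were lower in fed tadpoles.

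The log2 fold change of fos.S was -2.16 ± 0.62 (adjusted p 0.0225) and that of fos.L -0.97 ± 0.62 (adjusted p 0.231). Without the fed 13 dpf library of experiment 2 fos.L passed, with -1.69 (adjusted p 0.00193). The call of fos.S was lost without either fed 10 dpf library (adjusted p 0.068 for experiment 1 and 0.0636 for experiment 2), without either unfed 10 dpf library (0.0519 and 0.0603), without the fed 16 dpf library (0.0558), and without the experiment block (0.0504).

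fosl1 and fosl2 encode the Fos-related antigens, which in mammals lack the strong activation domain of c-Fos. fosl1.S had 1.16, 0.563, 2.36, 0.377 and 1.28 CPM in fed and 1.54, 1.31, 6.64, 2.26 and 13.9 CPM in unfed tadpoles, lower in the fed library of each pair but with overlapping ranges (-1.87 ± 0.41, adjusted p 0.00364). fosl1.L was not tested with the filter because it was near 0 outside a few libraries: the unfed libraries held 6, 4, 29, 11 and 288 counts and the fed libraries 4, 0, 3, 2 and 1. Most of its counts thus came from the unfed 16 dpf library. Without the filter its log2 fold change was -3.99 ± 0.81 (adjusted p 0.00449).

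fosl2.S had 4.88, 3.6, 4.04, 2.52 and 3.12 CPM in fed and 6.44, 4.84, 11, 7.85 and 22.4 CPM in unfed tadpoles. The ranges touched only in experiment 1, and the log2 fold change was -1.34 ± 0.32 (adjusted p 0.00581). fosl2.L had 6.39, 5.4, 5.72, 4.65 and 3.69 CPM in fed and 6.26, 6.35, 11.4, 10.2 and 21.6 CPM in unfed tadpoles. Its levels in experiment 1 were alike in both feeding states, and its log2 fold change of -0.96 ± 0.31 (adjusted p 0.0276) was lost without the fed or unfed 10 dpf library of experiment 2 (adjusted p 0.0703 and 0.0658) and without the fed or unfed 13 dpf library of experiment 2 (0.065 and 0.0654). fosb, a partner of Jun proteins like c-Fos, was scarce, with 0 to 1.38 CPM for fosb.L and 0 to 0.629 CPM for fosb.S in fed libraries and 0.108 to 1.96 and 0.215 to 0.998 CPM in unfed libraries. Without the filter fosb.L had a log2 fold change of -0.60 ± 0.72 (adjusted p 0.555) and fosb.S of -1.49 ± 0.68 (adjusted p 0.103); a long noncoding RNA gene overlaps fosb.L.

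**Figure D2:**
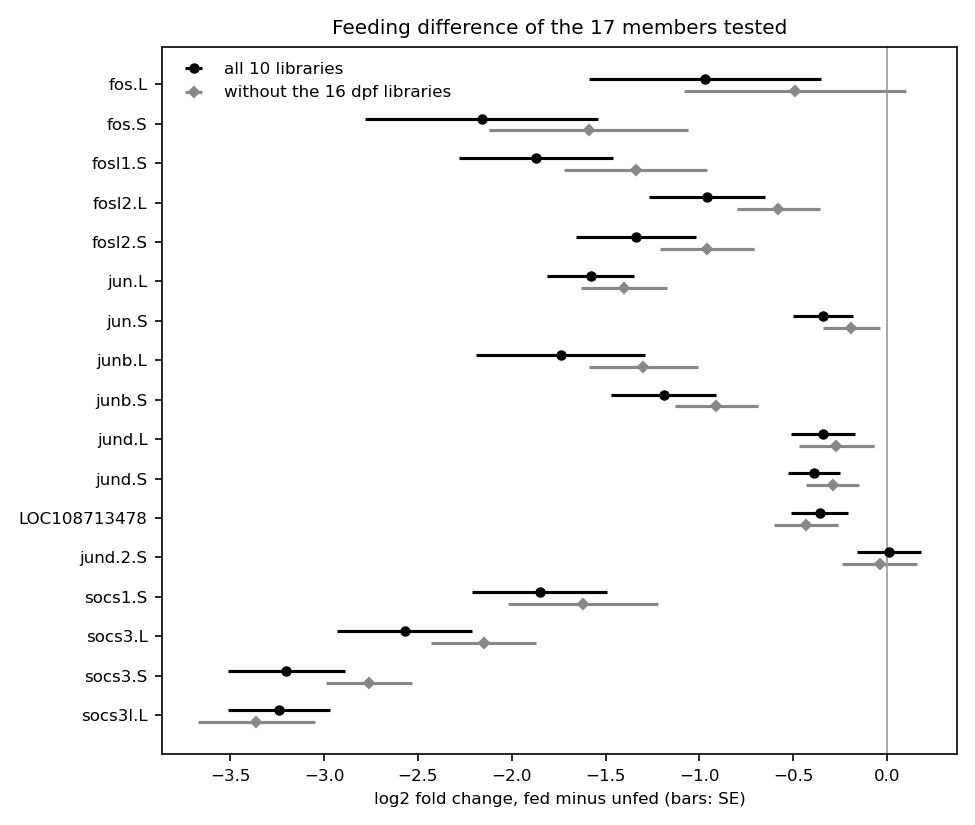
Log2 fold change, fed minus unfed (x axis), of the 17 tested genes, with bars of 1 SE, for all 10 libraries (black circles) and without the 16 dpf libraries (grey diamonds). socs3.S lies at -3.20 and -2.76 and socs3l.L at -3.24 and -3.36, and jund.2.S lies at 0.01 and -0.04.

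Compared per length, as CPM per kb of transcript, the order of the genes differed between the feeding states. In fed tadpoles it began with junb.S at 16.6 ± 1.70, jund.S at 10.3 ± 1.41, jun.S at 7.81 ± 2.29 and jund.L at 5.8 ± 1.61 CPM per kb (SD, n = 5), and from jund.S to jund.L neighbours differed by less than 2 SDs. junb.L (4.11 ± 1.15) and jun.L (3.21 ± 0.989) came next, and every Fos and Socs gene had a mean of 2.08 CPM per kb (fos.L) or less. In unfed tadpoles junb.S led at 42.9 ± 24.8, junb.L was next at 16.9 ± 12.2, and socs3.L (11.6 ± 10.2) stood between jund.S (13.5 ± 2.28) and jun.S (10.2 ± 4.55). junb.S was above junb.L in each of the 10 libraries, and the other neighbours in this order did not differ beyond their spread. Without the unfed 16 dpf library jund.S (12.7 ± 1.36) preceded junb.L (12 ± 6.37), and socs3.L (7.33 ± 4.31) came after jun.L (8.73 ± 3.38) and jun.S (8.59 ± 3.11; SD, n = 4).

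The summed level of the Jun genes was 50 ± 3.78 CPM per kb in fed tadpoles (45.2 to 53.9) and 103 ± 48.8 in unfed tadpoles (61.3 to 180), without overlap. That of the Socs genes was 4.74 ± 1.12 (3.1 to 5.91) in fed and 30.5 ± 19.9 (12.1 to 61.9) in unfed tadpoles, also without overlap, and that of the Fos genes 6.65 ± 2.76 (4.41 to 11.3) and 23.9 ± 23.5 (9.38 to 65), which overlapped. Without the unfed 16 dpf library the unfed Fos mean was 13.7 ± 6.0 CPM per kb (SD, n = 4), the Jun mean 84.1 ± 27.0 and the Socs mean 22.7 ± 10.9. Within the Jun sum the junb copies held 41.8% ± 6.41 in fed and 54.9% ± 8.26 in unfed libraries, and the jund and jun-D-like genes 36.4% ± 4.23 and 25.2% ± 7.89. In experiment 1 the junb share was near equal in fed libraries (45.7% and 47.7%) and unfed libraries (45.1% and 48.7%); in experiment 2 it was 31.9% to 44.7% in fed and 57.3% to 66.1% in unfed libraries. Within the Socs sum the socs1 copies, with the socs1-like gene, held 26.9% to 45.9% in fed and 10.7% to 18.7% in unfed libraries. These shares lean on the short socs1-like gene LOC108715012, which had 1 to 6 counts in any library. In fed libraries it had 0.741 ± 0.554 CPM per kb, beside 0.869 ± 0.221 for socs1.S (SD, n = 5). The gap between the fed and unfed shares is therefore uncertain.

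**Figure D3:**
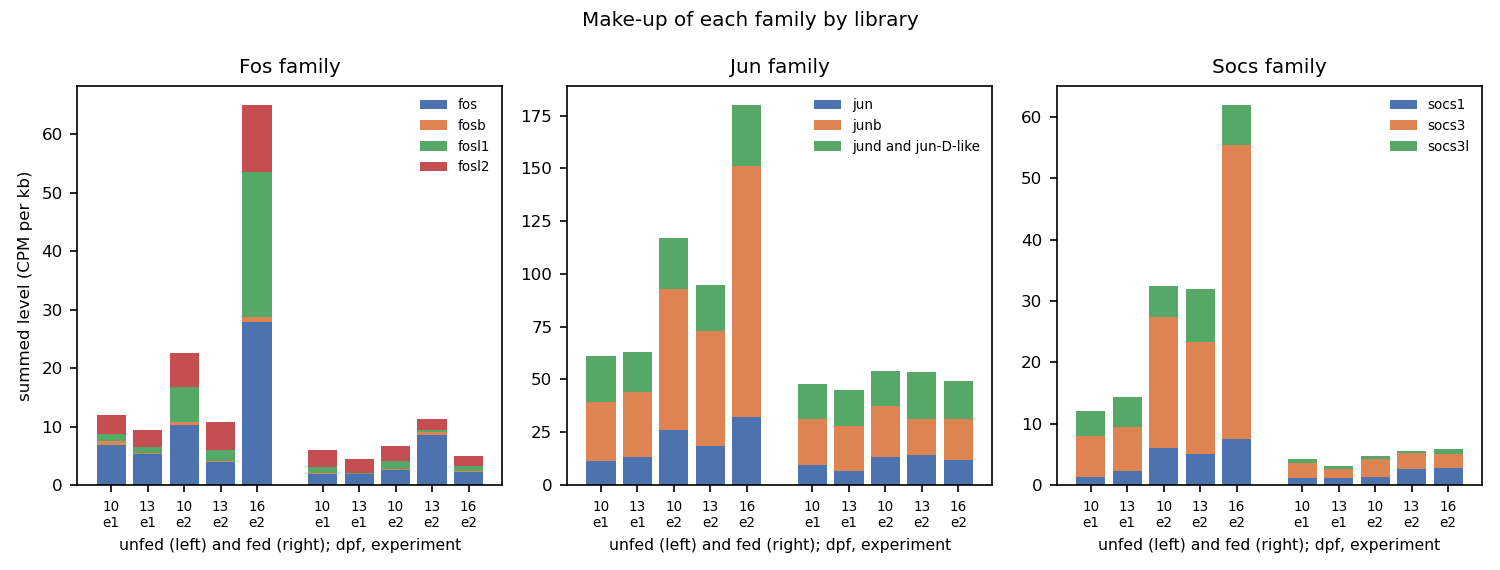
Summed level in CPM per kb (linear axis from 0) of the Fos, Jun and Socs genes in each library, unfed on the left and fed on the right of each panel, labelled by dpf and experiment (e1, e2) and coloured by gene. The Jun bars of fed libraries stay between 45.2 and 53.9 CPM per kb while those of unfed libraries run from 61.3 to 180.

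Taken by age, 6 of the 17 tested genes were lower in fed tadpoles at 10 dpf (background 10.6% of all genes): fos.S, jun.L, socs1.S, socs3.L, socs3.S and socs3l.L. The largest of these differences were -2.90 ± 0.42 for socs3l.L (adjusted p 0.00139) and -2.87 ± 0.33 for socs3.S (adjusted p 0.000545). At 13 dpf 7 were lower (background 16%): fosl1.S, jun.L, junb.L, junb.S, socs3.L, socs3.S and socs3l.L. jun.L, socs3.L, socs3.S and socs3l.L thus passed at both ages, and socs3l.L had -3.83 ± 0.43 at 13 dpf (adjusted p 0.000255). Without the experiment block only socs3.S and socs3l.L passed at both ages. The adjusted p by edgeR was then 0.107 for jun.L and 0.0683 for socs3.L at 10 dpf, and 0.0695 for jun.L at 13 dpf. Of the genes passing at 10 or 13 dpf, fos.S, fosl1.S, socs1.S, socs3.S and socs3l.L could enter the test on their unfed libraries alone. The counts at both ages thus describe the tested genes only. Ages followed the titles, and no count by age was rerun with the stage fields. These counts depended on single libraries and on the experiment block: without the block they were 2 and 3, the count at 10 dpf was 2 without the fed or the unfed 10 dpf library of experiment 2, 11 without the fed 13 dpf library of experiment 1 and 12 without that of experiment 2, and the count at 13 dpf was 4 without the unfed 13 dpf library of experiment 1.

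The change of the feeding difference from 10 to 13 dpf was called for 0 of the 17 genes and for 0% of all genes by edgeR, with 2 genes at an unadjusted p under 0.05 (5.13% of all genes) and 0 by DESeq2 (25 over all genes). The pair under 0.05 was fos.L (log2 change 2.11 ± 0.77, adjusted p 0.917) and jund.L (0.77 ± 0.34, adjusted p 0.955). For both, the fed 13 dpf library of experiment 2 was the highest fed library. The comparison of 13 with 10 dpf called 0 of the 17 in unfed tadpoles (0% of all genes; 1 gene, fosl1.S, unadjusted, beside 6.21% of all genes; 0 by DESeq2) and 0 in fed tadpoles (0% of all genes; 2 genes, fosl1.S and jund.L, unadjusted, beside 1.79%; 0 by DESeq2). The interval of the change in unfed tadpoles was -0.91 to 0.49 for socs3.L and -0.79 to 0.60 for junb.S (log2, 95% confidence).

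At 16 dpf each feeding state had a single library, so no test was made. Of the 17 tested genes, 12 were lower by 2-fold or more in the fed library, beside 13.7% of all tested genes, and the unfed 16 dpf library was the highest of the 10 libraries for 14 of them, beside 12.8% of all tested genes. The unfed level exceeded the fed level 30.7-fold for socs3.S (373 counts against 8; interval 15.4 to 71.6, 95%, counting error only), 18.7-fold for fos.S (427 against 15; 11.2 to 33.8), 17.1-fold for socs3.L (468 against 18; 10.7 to 29.1) and 13.0-fold for junb.L (1024 against 52; 9.81 to 17.5). fosl1.L had 288 counts against 1, a ratio of 190.0 with an interval of 33.8 to 7520. At the other end jun.S differed 1.91-fold, jund.S 1.75-fold, jund.L 1.51-fold and LOC108713478 1.07-fold (interval 0.767 to 1.51). Fed levels were the higher ones for jund.2.S (ratio of unfed to fed 0.878, interval 0.546 to 1.42) and for the untested LOC108715012 (0.439, interval 0.0911 to 1.85), with both intervals spanning equal levels. Without the 16 dpf libraries 11 of the 17 genes were still lower in fed tadpoles over both younger ages (background 23.5%), with log2 fold changes of -2.76 ± 0.23 for socs3.S (adjusted p 1.3e-05), -3.36 ± 0.31 for socs3l.L and -0.91 ± 0.22 for junb.S (adjusted p 0.0068).

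Taken by experiment, 4 of the 17 genes were lower in fed tadpoles in experiment 1 (jun.L, socs3.L, socs3.S and socs3l.L; background 9.91%) and 10 in experiment 2 (these with fosl1.S, fosl2.L, fosl2.S, junb.L, junb.S and socs1.S; background 21.5%). Among them fosl1.S, socs1.S, socs3.S and socs3l.L could enter the test on their unfed libraries alone. junb.S had a log2 fold change of -0.37 ± 0.26 (adjusted p 0.326) in experiment 1 and -1.73 ± 0.22 (adjusted p 0.000312) in experiment 2, and fosl2.L had -0.10 ± 0.35 (adjusted p 0.859) and -1.54 ± 0.29 (adjusted p 0.00204). socs3l.L was lower in both, by -2.81 ± 0.41 (adjusted p 0.00222) and -3.54 ± 0.34 (adjusted p 7.64e-05). Experiment 2 alone holds the 16 dpf pair. By the stage fields experiment 1 holds no fed and unfed library of the same age. The difference of the feeding effect between the experiments was called for 0 of the 17 genes and 0% of all genes by edgeR; 6 of the 17 had an unadjusted p under 0.05 (fosl2.L, fosl2.S, junb.L, junb.S, socs1.S and socs3.L), beside 6.66% of all genes, and 0 were called by DESeq2 (95 over all genes). The smallest p among them was that of junb.S, with -1.36 ± 0.34 (95% interval -2.10 to -0.62, adjusted p 0.424).

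**Figure D4:**
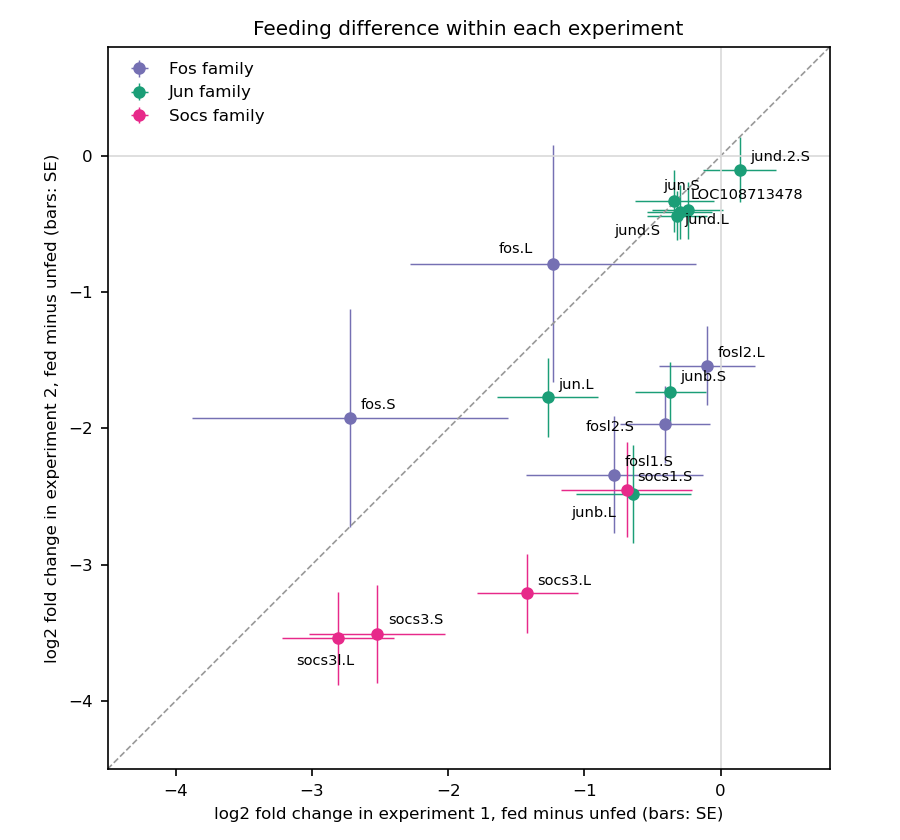
Log2 fold change, fed minus unfed, of the 17 tested genes in experiment 1 (x axis) and experiment 2 (y axis), with bars of 1 SE and the line of equal values dashed, coloured by family. socs3.L (-1.42 and -3.21) and junb.S (-0.37 and -1.73) lie below the line, and jund.2.S lies near 0 on both axes.

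The unfed libraries differed between the experiments. In unfed tadpoles 1 of the 17 genes was higher in experiment 2 by edgeR, socs3.L by a log2 of 1.74 ± 0.31 (adjusted p 0.0343; background 0.673% of genes), and DESeq2 called junb.L, junb.S and socs3.S too. An unadjusted p under 0.05 was seen for 10 of the 17, beside 15.7% of all genes. That single call was lost without either unfed library of experiment 1, without the fed 13 dpf and without the unfed 13 dpf library of experiment 2, and the count was 3 without the fed or without the unfed 16 dpf library. In unfed tadpoles socs1.S had 1.74 ± 0.38 (adjusted p 0.0625), junb.S 1.10 ± 0.26 (adjusted p 0.0737) and junb.L 1.60 ± 0.41 (adjusted p 0.117). In fed tadpoles 0 of the 17 genes differed between the experiments by edgeR (background 0.813%) or DESeq2, and 2, jun.S and jund.2.S, had an unadjusted p under 0.05, beside 19.6% of all genes. The interval there was -0.94 to 0.86 for socs3.L and -0.80 to 0.28 for junb.S.

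The genes around AP-1 were followed with lists that were chosen with earlier results of these data known, and their counts stand beside the 26% of all tested genes that were lower and the 25.4% that were higher. Genes of these and the following lists could also enter the test on their unfed libraries alone. Counts of the lists thus describe the tested genes only. Of 14 tested genes of AP-1 dimer partners 6 were lower and 1 was higher in fed tadpoles over all ages (median log2 -0.27). The small Maf protein genes maff.L, maff.S and mafk.S had -1.41 ± 0.13, -1.21 ± 0.14 and -2.10 ± 0.34. mafk.S was scarce, with 0.545 ± 0.296 CPM in fed and 2.33 ± 0.473 CPM in unfed tadpoles (SD, n = 5 each). Its fed mean lay under the filter of 1.1 CPM. Of 50 other immediate early genes 27 were lower and 6 higher (median -0.63), led by the receptor kinase inhibitor gene spry2.S (-2.24 ± 0.18), zfp36.L, which encodes an mRNA-destabilizing protein (-2.23 ± 0.21), and the antiproliferative gene btg1.L (-1.76 ± 0.22). MAP kinases and the factors upstream of fos and jun had 12 lower and 8 higher of 36 (median -0.10), close to the shares over all genes, among them the p38 kinase gene mapk11.S (-2.83 ± 0.23), the JNK-activating kinase gene map2k7.S (-1.33 ± 0.16) and elk4.S, which encodes a serum response factor partner (-1.63 ± 0.20). Of 25 genes known as AP-1 targets in mammals 16 were lower and 2 higher (median -0.62); the matrix protease gene mmp9.1.S had 21.1 ± 3.54 CPM in fed and 102 ± 56.9 CPM in unfed tadpoles (SD, n = 5 each), and cd44.L and tgfb1.S had -1.0 ± 0.14 and -1.42 ± 0.20.

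In the cytokine pathway that SOCS proteins act on, 4 of 12 other SOCS family genes were lower and 0 higher (median log2 -0.23), beside 26% and 25.4% of all genes. cish.S and cish.L, which encode the inhibitor CIS, had -2.56 ± 0.20 and -1.60 ± 0.22, and socs2.L, a brake on growth hormone signalling in mice, had -2.75 ± 0.32. The fed mean of socs2.L (1.1 ± 0.522 CPM, SD, n = 5) lay at the filter value, beside 7.82 ± 2.54 CPM in unfed tadpoles. Of 31 genes of JAK kinases, STAT factors and their regulators 13 were lower and 2 higher (median -0.44), with the kinase genes jak1.S at -1.10 ± 0.14 and tyk2.L at -1.06 ± 0.14. Of 16 cytokine receptor genes 11 were lower and 0 higher (median -0.75), among them the shared receptor chain gene il6st.S (-1.54 ± 0.17), il10ra.L (-1.05 ± 0.15) and osmr.S (-1.15 ± 0.18). Of 25 receptor symbols 12 were matched in the tables, and ifngr1, ifnar1, il22ra1 and csf3r were among those not matched. Of 25 ligand symbols 12 were matched as well, and il6, osm, il22, il2, il4 and il15 were among those not matched. Genes not matched were not measured here. Of the 21 ligand genes found only clcf1.L had enough counts, and it was lower (-1.41 ± 0.18). The genes named from each list are up to 3 with the smallest p among those past the threshold, and those of the AP-1 and cytokine lists had adjusted p of 0.000514 or less.

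Markers of the cell types of the tube were counted in the same way, beside 26% lower and 25.4% higher over all genes. Of 19 tested leukocyte marker genes 17 were lower and 0 higher in fed tadpoles (median log2 -1.02; tyrobp.S -2.07 ± 0.27, epx.L -1.78 ± 0.24 and mpo.L -1.04 ± 0.16); their summed level was 165 to 248 CPM in fed and 262 to 642 CPM in unfed libraries, no marker gene was at 0 in all libraries, and csf1r and fcer1g were not matched in the tables. Within unfed tadpoles that sum was 262 and 280 CPM in experiment 1 and 518, 642 and 619 CPM in experiment 2. Among the tested genes, each unfed library of experiment 2 was above those of experiment 1 for the copies of fosl2, jun, junb and socs3. The same held for fosl1.S, jund.L, jund.S and socs1.S. It did not hold for fos.L, fos.S, socs3l.L, LOC108713478 and jund.2.S. Only socs3.L passed that comparison by edgeR (adjusted p 0.0343). Experiment 2 had 1 unfed library at each of 10, 13 and 16 dpf. In this order socs3.L had 18.4, 15.3 and 43.7 CPM, junb.S 101, 84.4 and 177 CPM, and socs3l.L 7.15, 12.3 and 9.24 CPM. Of 11 genes of enteric neurons and glia 8 were lower and 0 higher (erbb3.L -1.52 ± 0.17, erbb3.S -1.30 ± 0.18 and vip.S -0.83 ± 0.15; sums 87 to 96.7 CPM fed and 168 to 180 CPM unfed). Of 21 gut epithelium genes 0 were lower and 3 higher (fabp2.S 1.82 ± 0.40, cdx2.S 0.66 ± 0.17 and vil1.L 0.86 ± 0.30; sums 8320 to 11600 CPM fed and 4000 to 9060 CPM unfed). Of 17 smooth muscle and mesenchyme genes 2 were lower and 5 higher (pdgfra.S -1.19 ± 0.17, tagln.S 1.10 ± 0.27 and cnn1.S 1.0 ± 0.26; sums 6800 to 17100 CPM fed and 6300 to 11700 CPM unfed). That sum was lower in the fed library of each pair of experiment 1 and higher in the fed library of each pair of experiment 2. Of 9 genes of blood vessels and red cells 4 were lower and 1 higher (pecam1.S -1.01 ± 0.22, kdr.S -0.59 ± 0.18 and tie1.L -0.48 ± 0.16). The named genes are those of vessels. The summed level of the list went the other way, higher in the fed library of each pair (455 to 2570 CPM fed and 109 to 694 CPM unfed). Of 9 genes of the heat shock and handling response 0 were lower and 3 higher in fed tadpoles (hsph1.S 1.72 ± 0.24, hsph1.L 2.16 ± 0.31 and hspa2.L 1.46 ± 0.30), while their summed level was 4990 to 6560 CPM in fed and 6270 to 8280 CPM in unfed libraries, higher in the unfed library of each pair except 10 dpf of experiment 1. The part of these cells and of handling in the levels of the AP-1 and Socs genes was not tested.

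For the most abundant gene of each family, the genes with the most similar level over the 10 libraries were listed by Pearson's r of log2 CPM, as a description of libraries that share feeding state and experiment. Nearest to fos.S were dusp1.L (r 0.949) and ier2.L (0.925), both immediate early genes in mammals, and a gene described as protein eva-1 homolog C-like (0.924). The first of these, which encodes a phosphatase of MAP kinases, had 16.4, 14.3, 19.9, 34.2 and 19.3 CPM in fed and 47.4, 53.5, 81.9, 51.7 and 117 CPM in unfed tadpoles. Like fos.S, by which it was picked over these same libraries, dusp1.L was highest among fed libraries at 13 dpf of experiment 2. Both were highest of all in the unfed 16 dpf library. Within the 13 dpf pair of experiment 2, dusp1.L was lower in the fed library, while fos.S was higher there (7.04 against 4.95 CPM). Nearest to junb.S were cnfn.1.S, described as cornifelin homolog B (r 0.986), and both copies of tnip2, an interactor of the NF-kB inhibitor TNFAIP3 (0.971 for tnip2.S and 0.966 for tnip2.L). tnip2.L had 1.56 to 5.52 CPM in all fed libraries and in the unfed libraries of experiment 1 (3.45 and 3.63 CPM), and 41.3, 26.6 and 104 CPM in the unfed libraries of experiment 2. Nearest to socs3.L were zfp36.S, which encodes tristetraprolin (r 0.98), the hexokinase gene hk2.L (0.978) and gadd45g.S (0.977).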

How the data were processed

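The genes and lists were chosen with earlier results of these data known. Per the submitters' processing notes, the authors used HISAT2 for alignment and featureCounts for counting; for versions, genome build, strand and reads matching several places the answer is not given in the sources used here, so reads of near-identical copies or overlapping genes cannot be assigned with certainty. The deposited tables hold raw counts for 63876 transcripts and, per the file headers, their length in bases. Of 61159 rows with an accession, 43396 matched a RefSeq gene table of Xenopus_laevis_v10.1 (used for names and overlaps) and 7127 joined a gene by description. Each gene took its highest transcript, giving 35664 genes. Blank rows (0.0738% of counts) and named rows without an accession (0.136%) were left out.

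Counts were tested in R 4.3.3 with edgeR 4.0.16 (filterByExpr at 10 counts in 5 libraries, TMM factors 0.859 to 1.09, robust quasi-likelihood F test, Benjamini-Hochberg adjustment over 22883 genes, threshold 0.05), and the code was tested on simulated data. All ages were fitted with experiment, age and feeding; single ages and age changes with experiment and the 6 groups; experiment comparisons with a feeding by experiment term. The replicate number is the experiment in the titles, hence the block; differences between experiments correlated at 0.336 to 0.514 over 6 pairs of groups. SEs are the log2 fold change over the root of F, and 95% intervals use the t distribution. At 16 dpf intervals cover counting error only. Alternatives were DESeq2 1.42.0, other size factors, no filter, each library left out, no block, ages from the stage field, no 16 dpf libraries, a removed length trend, all or summed transcripts, and, chosen after seeing the data, leaving out the 2 libraries with differing ages. Those listed from the stage field onward were run for the all-ages comparison only. Comparisons at single ages, between ages and by experiment were not rerun with them. Genes named beside the members are the 3 of each list with the smallest p among those past the threshold over all ages, and the 3 with the highest Pearson correlation of log2 CPM (prior count 2) to the most abundant gene of each family. Some results of the lists are not reported here. No sequence is shown.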

Additional observations from a re-analysis of the deposited data

Results flagged for a closer look

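Each gene was examined in its 5 fed and its 5 unfed libraries for a library far from the others, measured as the gap to the nearest library divided by the whole range, with a limit of 0.71 at 5 libraries. Of 44 groups looked at 5 were beyond it, and chance marks about 1 group in 20. The fed 13 dpf library of experiment 2 stood apart for fos.L (0.928; 12 CPM, next fed library 3.25 CPM) and for jund.S (0.86; 32.3 CPM, next 25 CPM). The unfed 16 dpf library stood apart for fos.S (0.739; 39.8 CPM, next unfed library 14.1 CPM) and for fosl1.L (0.875; 26.9 CPM, next 3.7 CPM). The unfed 10 dpf library of experiment 1, whose age labels differ, stood apart for jund.2.S (0.792; 6.35 CPM, next 4.22 CPM). No cause was tested for any of these libraries.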

How the results depend on the processing

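Over all ages, 12 genes were called, 9 to 14 when single libraries were left out and 10 to 13 under the other settings. At 10 dpf the 6 calls became 2 without the replicate block and 2 to 12 with single libraries left out; at 13 dpf the 7 calls became 3 without the block and 4 to 9. The 1 call of experiment 2 against 1 in unfed tadpoles became 4 by DESeq2, 4 without the filter and 0 to 3 with single libraries left out. The fold change of jund.2.S (0.01) took the other sign with ages from the stage field (-0.14), without the 16 dpf libraries (-0.04), without the 2 libraries whose ages differ (-0.04) and in the range -0.06 to 0.09 over single libraries, and that of LOC108713478 was 0.04 with the length trend removed. The cause was not tested. fos.S was also lost without the filter (adjusted p 0.0518) and without the 2 libraries whose ages differ (0.0743), fosl2.L with the length trend removed (0.0698), and jund.S without the filter (0.0534), with ages from the stage field (0.0505), with all transcript rows (0.0628), with summed transcripts (0.0532) and without the 2 libraries (0.0717). jund.L passed with the length trend removed (-0.54, 0.0193) and LOC108713478 with ages from the stage field (-0.44, 0.0349).

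Over all genes, calls over all ages were 11771, or 23257 with all transcript rows, which repeat the variants of a gene. At 10 dpf they were 5223 (3368 by DESeq2, 2135 without the block, 906 to 7286 with single libraries left out) and at 13 dpf 7684 (4035 without the block, 2887 to 7717). In unfed tadpoles 215 genes differed between experiments (455 by DESeq2, 451 without the filter, 8 to 422 with single libraries left out), and in fed tadpoles 186 (461, 376 and 1 to 1239). The 0 calls became 25 by DESeq2, 2 without the filter and 0 to 31 with single libraries left out for the change of the feeding difference with age, 95, 16 and 0 to 75 for its change with experiment, 44, 20 and 0 to 87 for unfed age, and 4 by DESeq2 and 0 to 3 for fed age. Groups hold at most 2 libraries at an age, and genes below about 1.1 CPM were not tested.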
